A study of Mus musculus with 12 samples.

Results

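Long 5hmC domains were defined as autosomal regions of at least 5 kb in which bACE-seq read less 5-hydroxymethylcytosine (5hmC) in the retina of Tet tcKO mice than in that of Cre- controls, with a Cre- level under 35%. By this rule 3845 domains were found among 582238 autosomal regions that lost 5hmC and 592906 bACE-seq regions in all. The domains were thus selected on their length, their Cre- level and the direction of change, and these values are given below as a description and without a test. The second readout, whole genome bisulfite sequencing (WGBS), was not used by the rule. Both assays were run on genomic DNA of whole retinas, pooled across animals, from C57 BL/6J mice at postnatal day 21. There were 3 libraries per group and assay and 12 libraries in all. The Cre- controls, whose genotype the labels give as WT, came from Cre- breeders and were matched in age. In the Tet tcKO, the Chx10-Cre-GFP transgene recombined floxed exons of Tet1, Tet2 and Tet3 in retinal progenitor cells. Because this transgene is mosaic, Cre+ breeders were crossed with each other so that mutants carried both copies, and cells that escaped recombination were not measured here. The lists hold 1 mean per group and region, so the spread between libraries and the coverage are unknown, and neither an interval nor a test of a level could be given.

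TET enzymes oxidise 5-methylcytosine (5mC) to 5hmC, which opens the path of active demethylation, and 5hmC is also a stable mark that accumulates in neurons over the bodies of transcribed genes. In bACE-seq, bisulfite converts unmodified cytosine and protects 5hmC from a deaminase that then converts 5mC, so that only 5hmC is read as cytosine. WGBS reads 5mC and 5hmC together, so a region that loses 5hmC and rises in WGBS holds more modified cytosine in total. In a whole control retina, most cells are rods. The study reports that Tet tcKO retinas largely lost rod markers and had more cells with cone markers, so the groups differed in cell composition. A lower level in every cell cannot be told apart from a change in the share of cells that carry the mark. This holds for every comparison of the 2 groups below.

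The sequence in the middle of 4 domains gives examples of the CpGs over which these levels were averaged. Each window is 300 bases of the plus strand of GRCm38 (mm10), lies in an intron and has its CpGs in capitals. Repeats are not marked in the windows, and their share of a window was not measured. The windows come from the longest domain (Bicral, chr17:46841647-46841946), the domain with the highest Cre- level (Rorb, chr19:18982349-18982648), the first in order of the share of bases in WGBS gains whose middle was free of exons (Fryl, chr5:73211866-73212165) and the domain with the lowest Cre- level among those under 50% repeats (Iqsec3, chr6:121414877-121415176).
Bicral: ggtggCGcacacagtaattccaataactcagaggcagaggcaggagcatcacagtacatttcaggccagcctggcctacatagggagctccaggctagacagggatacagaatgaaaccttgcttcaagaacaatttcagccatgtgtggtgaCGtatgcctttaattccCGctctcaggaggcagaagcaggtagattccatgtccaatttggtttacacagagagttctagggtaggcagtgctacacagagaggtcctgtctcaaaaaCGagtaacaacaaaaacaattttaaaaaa
Rorb: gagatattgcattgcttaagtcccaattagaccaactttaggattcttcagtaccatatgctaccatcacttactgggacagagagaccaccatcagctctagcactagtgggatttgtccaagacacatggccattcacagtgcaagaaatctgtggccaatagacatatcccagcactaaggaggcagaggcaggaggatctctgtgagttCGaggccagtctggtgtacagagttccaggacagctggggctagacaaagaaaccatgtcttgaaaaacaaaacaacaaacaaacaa
Fryl: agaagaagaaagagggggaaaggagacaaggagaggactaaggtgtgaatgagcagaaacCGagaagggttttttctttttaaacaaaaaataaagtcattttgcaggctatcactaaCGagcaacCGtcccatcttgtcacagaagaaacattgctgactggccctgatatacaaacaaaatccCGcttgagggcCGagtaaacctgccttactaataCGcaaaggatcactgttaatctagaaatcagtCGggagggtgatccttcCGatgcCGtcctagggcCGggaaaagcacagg
Iqsec3: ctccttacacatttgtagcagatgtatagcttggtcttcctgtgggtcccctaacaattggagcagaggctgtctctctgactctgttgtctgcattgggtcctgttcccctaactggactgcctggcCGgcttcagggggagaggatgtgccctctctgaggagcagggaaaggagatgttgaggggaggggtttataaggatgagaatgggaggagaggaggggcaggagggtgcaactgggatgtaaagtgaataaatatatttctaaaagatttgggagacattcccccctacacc
The Fryl window held 10 CpGs and the Bicral window 4, whereas those of Rorb and Iqsec3 held 1 each. GC content was 51.3% in the Iqsec3 window and 45.7% in both the Rorb and the Fryl window, so the number of CpGs did not follow the GC content among these windows.

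Domains had a median length of 6190 bp, from 5002 to 27529 bp, and a median of 86 listed CpGs, from 4 to 509. Of the 3845 domains, 1680 measured 5 to 6 kb, 305 reached 10 kb and 8 reached 20 kb. They held 0.660% of the autosomal losses, 5.70% of the bases of those losses and 1.79% of all autosomal CpGs. Weighted by CpGs, Cre- retinas had 23.8% 5hmC and Tet tcKO retinas 5.98%, so that 25.1% of the Cre- level was kept. Over domains, the median levels of the 2 groups were 24.0% and 5.92%, with a median change of -18.1 percentage points. The share kept had a 10th percentile of 21.1%, a median of 24.9% and a 90th percentile of 28.4%. A domain's Cre- level said little about its share kept (Spearman's rho = 0.04 over 3845 domains, which share libraries and smoothing). When the domains were ranked by Cre- level into 4 groups of like number, the mean level rose from 17.4% to 30.6% and the share kept was 25%, 25.1%, 25.2% and 25.3%. CpG density was more closely related to it (rho = 0.32), and in 4 groups by density the share kept rose from 23.6% to 26.0%. Cytosines that fail to convert add to both groups, and the study put this failure at about 2% of unmodified cytosines in bACE-seq. With 2 percentage points subtracted from both groups, the share kept was 18.3% in place of 25.1%. The part of failed conversion was not tested beyond such subtraction of a fixed background, given in the closing section.

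**Figure D1:**
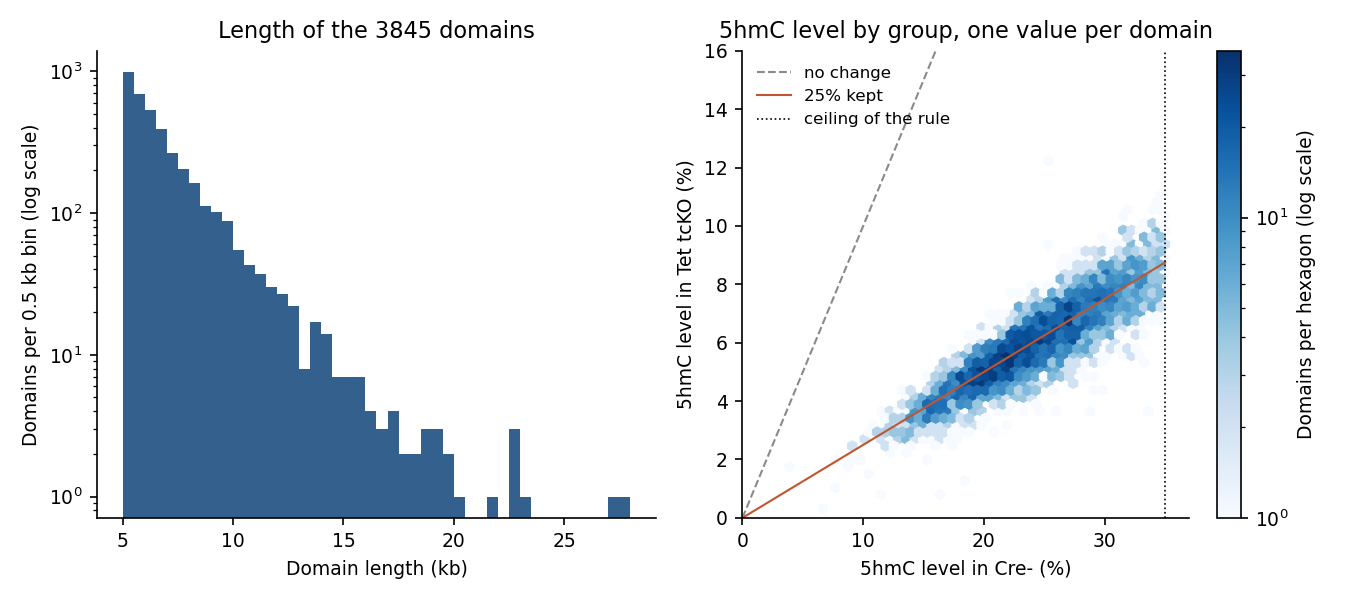
Left, number of domains by length in bins of 0.5 kb on a log axis. Right, 5hmC level in Tet tcKO against Cre- for each of the 3845 domains, shaded by the number of domains per hexagon on a log scale, with lines for no change, for 25% kept and for the 35% ceiling of the rule: the domains lie along the line of 25% kept from low to high Cre- levels.

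The thresholds of the rule cut through a continuous range. The 3 shortest domains, in Gm37240, Wnk1 and Rab21, measured 5002 bp each, and the 3 regions just below the limit, in Etv6, Wdr20 and Ttc39c, were 1 bp short of 5 kb. Just under the ceiling were domains in Rorb and Wdr20 with Cre- levels of 34.99% and 34.95%, and just above it regions in Gnb1, in an interval with the noncoding genes Gm4258 and Gm26979, and in Creb1 with 35.04%, 35.04% and 35.05%. The ceiling left out 153 of the 3998 autosomal regions of at least 5 kb, and none of the 3998 was higher in Tet tcKO. These 153 regions had a CpG-weighted Cre- level of 36.8% and kept 24.6%, beside 25.1% in the domains.

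The longest domain covered 27529 bp of Bicral, which encodes a subunit of a SWI/SNF chromatin remodelling complex (chr17:46828032-46855560), and fell from 28.9% to 6.83% over 401 CpGs. It began 2922 bp inside the 5′ end of the gene and overlapped 8 WGBS gains. The next longest, 27072 bp of Egln1, a prolyl hydroxylase that marks HIF for degradation (chr8:124917083-124944154), lay wholly in an intron and fell from 29.5% to 6.84%. The Egln1 domain overlapped 13 WGBS gains, and the CpG-weighted WGBS level of those wholly inside it rose from 75.5% to 87.8%. Long domains also spanned 23414 bp at Nudt3, 22902 bp at Gnaz, which encodes a G protein alpha subunit, 22893 bp at the nuclear receptor coactivator gene Ncoa2, 22687 bp at the sorting nexin gene Snx18, 21508 bp at Tpd52 and 20378 bp at Agap1. St3gal3, which encodes a sialyltransferase, and Lifr, which encodes the receptor of leukaemia inhibitory factor, completed the 10 longest with 19961 and 19808 bp. All 10 overlapped protein-coding genes, and all 10 overlapped between 6 and 13 WGBS gains. The highest 5hmC among these 10 was at Ncoa2, which fell from 34.2% to 9.51%, and the lowest at Snx18, which fell from 24.0% to 6.37%.

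The domain with the highest Cre- level, 34.99%, lay in Rorb, an orphan nuclear receptor needed for rod development, and fell to 9.30% (chr19:18976700-18988296). Among the next highest were Wdr20, the kinase gene Hipk3 and the Mediator subunit gene Med27, with Cre- levels from 34.88% to 34.95% and Tet tcKO levels from 8.09% to 9.80%. The largest drop was in a domain free of exons that began 6102 bp from the 5′ end of Impg1, a proteoglycan gene of the matrix around photoreceptors: 5hmC fell from 33.5% to 3.55%, so that 10.6% was kept, over 26 CpGs in 6536 bp (chr9:80452844-80459379). A second Impg1 domain next to it fell from 28.4% to 3.73% and kept 13.1%. Kdm2a, Raly, Fntb and Smurf2 held the next largest drops, from -28.2 to -27.5 percentage points, and kept 15.8%, 19.3%, 20.6% and 20.3%.

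At the other end, the domain in Cadm1, a cell adhesion gene, kept the largest share, 48.8%, with 25.05% in Cre- and 12.2% in Tet tcKO over 73 CpGs (chr9:47703371-47708571). Zfp608, the noncoding gene Lncpint and Igf1r each held a domain that kept 36.4%, 34.8% and 33.8%, and an intergenic domain on chromosome 10 kept 44.4% of a Cre- level of 3.91% over only 12 listed CpGs. The 5 smallest shares kept, that of Impg1 included, stood in domains with at most 28 listed CpGs. Abhd3 kept 4.77% over 8 CpGs, an intergenic domain on chromosome 1 kept 4.87% over 28, Mrtfa kept 6.47% over 10 and Mbnl1 kept 7.43% over 11, while the reference holds 38, 133, 68 and 133 CpGs there. In 29 of the 3845 domains under 50% of the reference CpGs were listed. Repeats made up 81.3% of the bases of these 29 domains and 21.3% of the other 3816, and their Cre- level was 15.5% against 23.8%. The domain with the fewest, in Wdr17, listed 4 of 34 CpGs, and part of the extreme values above stood on such sparse lists. Among domains with all CpGs listed, Iqsec3, which encodes an exchange factor at inhibitory synapses, had the lowest Cre- level, 7.56%, and kept 25.1% over 114 CpGs.

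Domains differed from shorter 5hmC losses in level and place, while the share kept hardly changed with length. Among losses under the same ceiling, those under 500 bp had a CpG-weighted Cre- level of 12.3%, those from 500 bp to 1 kb 14.6%, those from 1 to 2 kb 16.6%, those from 2 to 5 kb 19.6% and the domains 23.8%. Over the same order the share kept was 23.7%, 23.4%, 23.9%, 24.6% and 25.1%. Genes covered 56.9% of the bases of losses under 500 bp, 77.6% of those of 2 to 5 kb and 90.9% of those of the domains, against 85.5% of the flanks of the domains and 46.2% of all autosomal bases. Domain and flanks had the same genic share in 2601 of the 3845 cases. Exons made up 11.1% of the genic bases of the shortest losses and 7.27% of those of the domains, close to the 7.38% of all autosomal genic bases. CpG density fell with length from 2.302 CpGs per 100 bp under 500 bp to 1.36 at 2 to 5 kb, and was 1.39 in the domains and 0.828 over the autosomes. Length and level entered the rule, so these orders are a description.

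**Figure D2:**
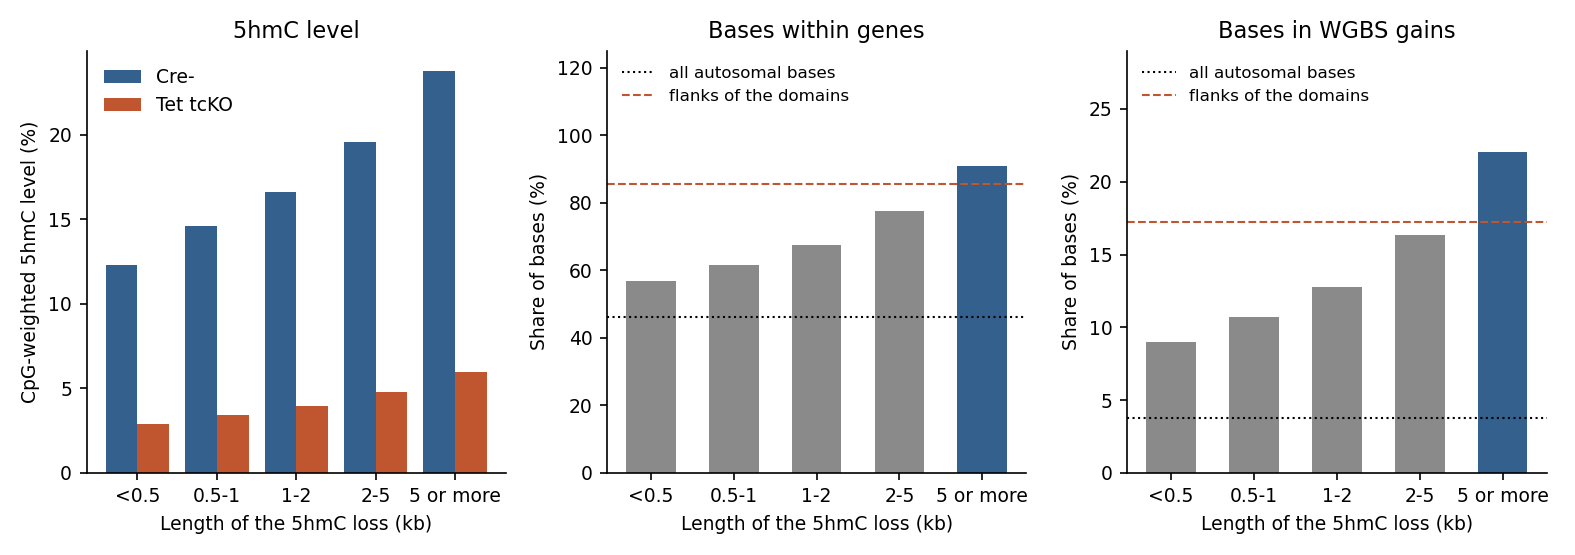
CpG-weighted 5hmC level in Cre- and Tet tcKO (left), share of bases within protein-coding or long noncoding genes (middle) and share of bases in WGBS gains (right) for autosomal 5hmC losses by length in kb, with dotted lines for all autosomal bases and dashed lines for the flanks of the domains; bars are single values over all regions of a class and have no error. Among the classes shown, all 3 quantities are highest in the domains, with 23.8% in Cre-, 90.9% of bases within genes and 22.0% in WGBS gains. The 153 regions of at least 5 kb at or above the ceiling are not shown and were higher, with 36.8%, 98.4% and 33.7%.

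Most domains lay within the body of one gene. Of the 3845, 3153 lay wholly inside a protein-coding gene, 3457 overlapped one, 130 overlapped only a long noncoding gene and 258 overlapped no annotated gene. A coding exon was present in 1499 domains. A transcription start site lay in 311 domains, or 8.09%, and 194 held a window that met the criteria of a CpG island. Per 100 kb, domains held 1.44 start sites, their flanks of the same length on either side 5.49 and the autosomes 2.06. Island windows covered 0.407% of the bases of the domains and 2.98% of those of the flanks. Island cover was lower in the domain than in its flanks in 1105 domains and higher in 100, with no difference in the other 2640.

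In genes of at least 20 kb, the midpoints of 3227 domains were counted in 10 equal parts of the gene. They were most frequent in the second part from the 5′ end, with 15.0%, against 10.9% in the first and 7.25% in the last. The median position was 41.3% of the gene from its 5′ end, compared with 47.4% for losses of 2 to 5 kb and 53.1% for those under 500 bp. A region of this length that lies wholly within a gene cannot have its midpoint close to either end. In 258 domains the 5′ edge lay inside the gene within 2 kb of its start, and in 107 the 3′ edge lay within 2 kb of its end.

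**Figure D3:**
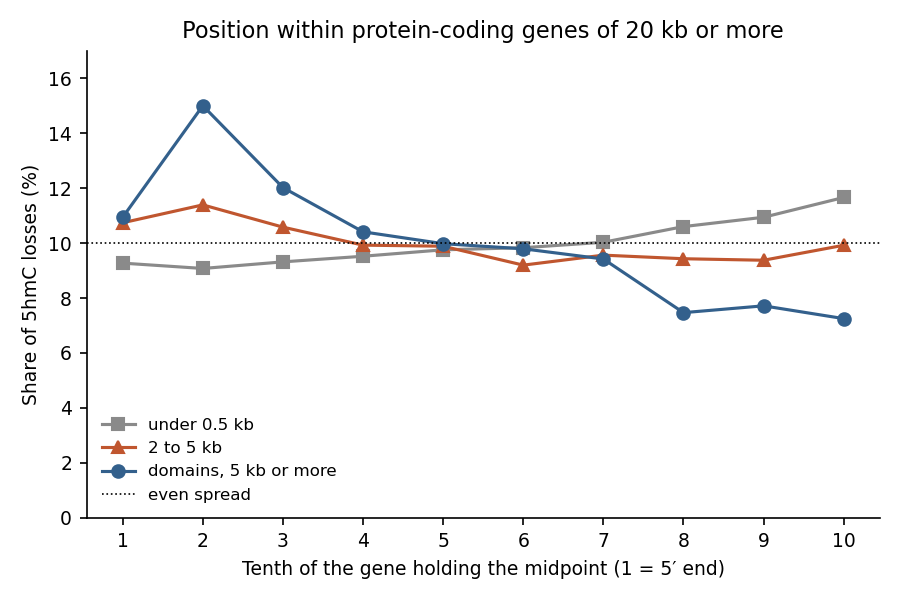
Share of 5hmC losses whose midpoint falls in each of 10 equal parts of a protein-coding gene of at least 20 kb, from the 5′ end to the 3′ end, for 3227 domains and for losses of 2 to 5 kb and under 500 bp; the dotted line marks an even spread. Domains peak at 15.0% in the second part and decline to 7.25% in the last, whereas losses under 500 bp rise to 11.7% in the last.

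Domains usually had other 5hmC losses of any length close by. The nearest lay at a median of 436 bp, and other losses covered a median of 60.2% of the flanks. When domains separated by at most 10 kb were grouped, 1354 fell into 539 runs of 2 or more and 2491 stood alone. The largest run held 11 domains across Itpk1, which encodes an inositol phosphate kinase (chr12:102565954-102695175), and covered 98011 of 129222 bp. Its CpG-weighted level fell from 25.2% to 6.50%, and the 11 domains kept between 21.2% and 28.7%. Gse1 and Msi2 each held a run of 9 domains, and runs of 7 lay at Pex14 and Casz1, at Ppp2r5c and at Tiam1. The Msi2 run had the highest Cre- level of these, 30.4%, and the Tiam1 run the lowest, 20.1%. Regions within 50 bp were merged in calling, so the division of such runs into domains depends on short gaps.

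Chromosomes differed in the number of domains more than in their levels. Per 10000 CpGs, chromosome 11 held 2.69 domains and chromosome 4 held 2.54, whereas chromosome 3 held 1.15 and chromosome 1 held 1.23. The Cre- level over the domains of a chromosome lay between 22.7% on chromosome 2 and 25.2% on chromosome 7, and the share kept between 24.4% on chromosome 13 and 25.7% on chromosome 7. Only 5 regions of at least 5 kb lay on chromosome X, which the rule left out.

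WGBS gave a separate reading of the same intervals. Of the 3845 domains, 3531 (91.8%) overlapped a region that was higher in Tet tcKO by WGBS, termed a WGBS gain, compared with 24.4% of all autosomal 5hmC losses. An overlap of 1 bp is more likely for a longer region, so the share of bases is the closer comparison. WGBS gains covered 22.0% of the bases of the domains, 17.2% of their flanks, 16.4% of losses of 2 to 5 kb, 8.98% of losses under 500 bp and 3.78% of the autosomes. By CpGs the domains reached 32.5% and the flanks 23.4%. When only gains of at least 0.2 were counted, the order turned, with 8.602% of the bases of the domains and 8.81% of those of the flanks. The domain exceeded its own flanks in the share of bases in 2323 cases and fell below them in 1446. In only 247 domains did gains cover at least 50% of the bases, so most of a domain's length usually lay outside any WGBS gain.

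A median of 2 WGBS gains overlapped a domain, and 13 was the highest number. Gains wholly inside domains numbered 8466, with a median length of 445 bp, and their CpG-weighted level rose from 65.7% to 82.3%. Gains elsewhere on 5hmC losses rose from 57.8% to 75.3%, and gains off 5hmC losses from 47.8% to 64.4%, so those inside domains started higher and rose by a like number of points. Per domain, the rise of the gains inside it had a median of 15.8 percentage points over 3378 domains, with a 10th percentile of 9.96 and a 90th of 24.3. The domains without any gain numbered 314. They were shorter, with a median of 5644 bp and 57 CpGs, had a Cre- level of 21.3% and were 29.2% repeat. The 17 domains with 10 or more gains had a median of 18603 bp and a Cre- level of 28.3%. A WGBS loss overlapped 19 domains (0.494%), beside 0.135% of all autosomal 5hmC losses, and longer regions again have more room for one.

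Plekhb1, which encodes a pleckstrin homology protein of photoreceptors, held the domain with the largest share in gains, with 100% of its 5329 bp inside a single WGBS gain (chr7:100652821-100658149), while its 5hmC fell from 30.5% to 7.90%. Adcy6, which encodes an adenylyl cyclase, followed with 94.6%, Fryl with 94.2%, the desaturase gene Scd2 with 88.9% and Gnb1, the beta subunit of rod transducin, with 88.5%. The Fryl domain was also dense in CpGs, with 136 in 6377 bp. In the 4 groups by Cre- level, the highest had 28.7% of its bases in gains and the lowest 15.9%. In 4 groups formed likewise by CpG density the share rose from 14.4% to 27.3%, although the Cre- level fell from 26.7% to 21.5%. Cre- level and CpG density were inversely related (rho = -0.40), and each was related to the share in gains (rho = 0.27 and 0.32, each over 3845 domains, with no test). The rises of WGBS regions depend on their own calling, which needs several CpGs, and its part in the relation to CpG density was not tested.

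Domains touched 2094 of 20780 autosomal protein-coding genes, or 10.1%. This share rose with gene length, from 1.14% of genes under 5 kb to 6.15% of those from 10 to 20 kb, 11.6% from 20 to 50 kb, 20.9% from 50 to 100 kb and 27.2% of those of at least 100 kb, so the median gene length of each list and the share over all genes of that length are given beside the counts that follow. An overlap of 1 bp counted as holding a domain, and 1948 genes held at least 50% of one. This stricter count was not made per list. For example, the domains counted for Rp1l1, Unc119, Grk1 and Cabp4 measured 7547, 6072, 7017 and 6062 bp. Only 2642, 2258, 2813 and 2797 bp of them lay inside the gene. Gse1, which encodes a protein of a histone deacetylase complex, had 21 domains covering 165893 bp, 47.0% of the gene. Over its domains 5hmC fell from 25.5% to 6.58%. Igf1r, the receptor of insulin-like growth factor 1, had 16 domains over 46.2% of its length, and their Cre- levels ranged from 18.9% to 33.6%. Msi2, which encodes an RNA-binding protein of neural progenitors and photoreceptors, had 14 domains over 32.9%, Cadm1 13 over 27.9% and the SWI/SNF subunit gene Arid1b 13 over 32.05%. Agap1 and Itpk1 had 11 each, over 23.7% and 69.96% of their length, and the chromatin reader gene Dpf3 had 10 over 30.8%. The annotation also counts 50 domains for Gm20388 and 18 for Fgfr2, whose gene models span 4434882 and 2960900 bp and take in neighbours such as Gse1 and Ctbp2.

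Some short genes lay almost entirely in 1 domain. Ankrd23 was covered over 100% of its 6696 bp, Slc39a5, a zinc transporter gene, over 96.7%, the synaptic adhesion gene Lrfn3 over 96.0%, Gigyf1 over 94.7% and the copine gene Cpne6 over 93.5%. Mrps21, a subunit of the mitochondrial ribosome, Spata2, the peroxisome biogenesis gene Pex10, the proteasome ATPase gene Psmc5 and Thyn1 completed the 10, with 89.2% to 92.7%. The Cre- levels of these 10 domains ranged from 15.7% at Pex10 to 26.6% at Ankrd23. WGBS gains covered 47.4% of Cpne6, the most among these 10, and none of Gigyf1.

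Genes of rod phototransduction, the cascade that turns photon capture into channel closure, held a domain in 7 of 17 cases. The median gene of that list was 28747 bp long, a size at which 11.6% of all genes held one (20 to 50 kb). Rgs9, which speeds the shut-off of transducin, had 5 domains over 48.5% of the gene. From 5′ to 3′, their 5hmC levels in Cre- were 31.2%, 27.5%, 21.4%, 21.8% and 19.7%, and in Tet tcKO 10.3%, 5.94%, 4.12%, 4.74% and 4.49%. The first Rgs9 domain thus stood above the others in both groups and kept 33.0%, compared with 19.3% to 22.7% for the rest. Gnb5, the partner of Rgs9, fell from 27.99% to 7.15% in its 1 domain. The domain of Sag, which encodes rod arrestin, fell from 33.0% to 6.80%, and that of Guca1b, a guanylate cyclase activator, from 26.2% to 5.09% across 86.2% of the gene. Domains in the rod list kept a median of 21.6% (11 domains, 19.3% to 33.0%), against 24.9% over all domains. Of these 11, 5 (45.5%) were among the 10.0% of all domains that kept the least. Such low shares were not limited to the rod list. The same count was 4 of 15 domains for outer segment and cilium and 3 of 15 for photoreceptor transcription factors. It was 3 of 23 for the ribbon synapse, 1 of 4 for horizontal cells and 1 of 7 for glycolysis. It was 0 for amacrine cells, bipolar cells, cone phototransduction, cytosine modification, microglia and endothelium, and complex I.

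Rod genes without a domain were not free of change in either assay. Pde6b, a subunit of the rod phosphodiesterase, was covered by 5hmC losses over 44.8% of its length and by WGBS gains over 42.8%. Gngt1, the gamma subunit of rod transducin, is only 3645 bp long, and the same values were 17.97% and 91.8%. Over the 10 rod genes without a domain, 5hmC losses covered between 17.97% (Gngt1) and 76.3% (Guca1a) and WGBS gains between 12.1% (Cngb1) and 100% (Pde6g), these extremes being named after their values were seen. The median length was 13464 bp for these 10 and 40580 bp for the 7 with a domain.

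Among transcription factors of photoreceptors, 5 of 17 held a domain, at a median gene length of 20882 bp, where genes of 20 to 50 kb give 11.6%. The median was 91325 bp for those with a domain and 19142 bp for those without. Esrrb, a nuclear receptor gene that acts in rod survival, and Rorb had 6 each, over 31.2% and 23.3% of 160512 and 180592 bp. The 6 domains of Rorb had Cre- levels between 25.8% and 34.99% and those of Esrrb between 24.2% and 30.7%. Tet tcKO levels ranged from 5.15% to 9.30% in Rorb and from 5.15% to 6.62% in Esrrb. In Esrrb the first domain began 77.9 kb from the 5′ end and had 70.7% of its bases in WGBS gains. Mef2d, a MADS-box factor gene, fell from 32.1% to 7.12% in a domain of 10398 bp, and Prdm1, which restrains bipolar fate, from 34.4% to 7.69%. Samd11 had 61.5% of its 8692 bp in a domain. No domain lay in Rxrg or in Neurod1. WGBS gains covered between 1.27% (Rxrg) and 84.8% (Nrl) of the 12 factors without a domain. In 4 of the 12, Crx, Nrl, Otx2 and Nr2e3, named after their values were seen, gains covered at least 50% of the gene, with 84.8%, 84.8%, 50.7% and 67.9%, and 5hmC losses covered 9.16%, 33.4%, 9.61% and 67.6%. Of the 5 factors with a domain, 2 had at least 50% in gains.

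**Figure D4:**
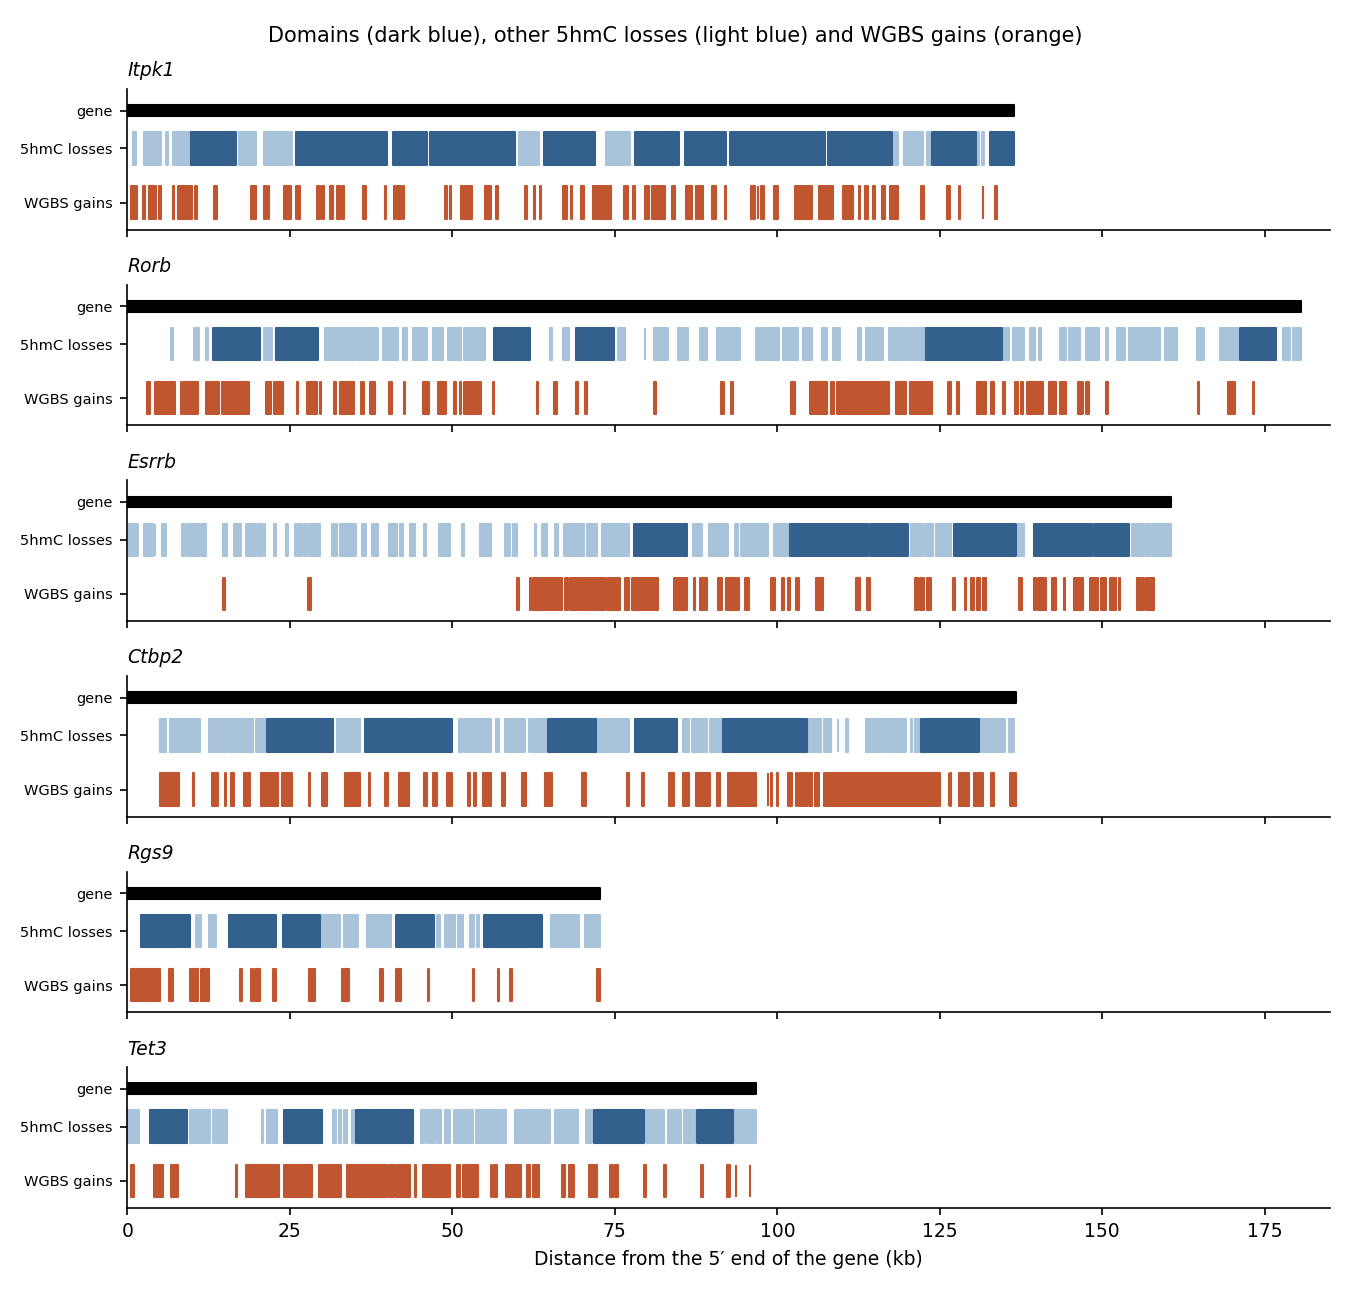
Domains (dark blue), other 5hmC losses (light blue) and WGBS gains (orange) along Itpk1, Rorb, Esrrb, Ctbp2, Rgs9 and Tet3, as distance from the 5′ end of the gene in kb; features are cut at the gene ends. The 11 domains of Itpk1 follow each other along the gene, and the 6 domains of Esrrb lie in its 3′ part together with most of its WGBS gains.

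Genes of the outer segment and cilium held a domain in 10 of 17 cases, with a median gene length of 34589 bp, beside 11.6% of all genes of 20 to 50 kb. The median was 38346 bp with a domain and 14475 bp without. Besides Impg1, the ciliary GTPase gene Arl3, Rpgrip1, which anchors a ciliary protein, and Prom1, needed for disc formation, had 2 domains each. Domains of Arl3 averaged 25.7% in Cre- retinas and 5.43% in mutants, those of Rpgrip1 22.8% and 5.68% and those of Prom1 27.8% and 7.66%. The median share of bases in WGBS gains was only 2.14% over the 15 domains of this list, against 18.4% over all domains. Over the whole length of the listed genes, however, gains covered 14.0% of bases, against 5.96% for all autosomal protein-coding genes. Gains covered at least 50% of the gene in 3 listed genes without a domain and in 2 with one. Rp1, with 409685 bp, and Reep6, with 6489 bp, had none.

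The ribbon synapse of photoreceptors was the list with the largest share of genes with a domain, 11 of 18, at a median gene length of 63052 bp, for which genes of 50 to 100 kb give 20.9%. Ctbp2, which also encodes the ribbon protein RIBEYE, had 7 domains over 42.9% of its length. Their Cre- levels were 30.7%, 27.3%, 30.3%, 30.2%, 25.4%, 30.8% and 32.3% from 5′ to 3′, and their Tet tcKO levels lay between 6.16% and 8.69%. The share of bases in WGBS gains ranged from 16.1% in the fifth to 62.0% in the seventh. Elfn1, a rod adhesion gene that recruits the bipolar cell receptor, had 4 domains over 46.3%, the channel subunit gene Cacna2d4 had 3 and the active zone gene Bsn had 1 of 11914 bp. Rims1, with 519744 bp, and Lrit3 had none.

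In lists for other cells of the retina, between 0 and 37.5% of genes held a domain. Cone phototransduction had 1 of 11 genes (median length 14592 bp, 6.15% of genes of 10 to 20 kb), the channel gene Kcnv2, which rods also express, with a fall from 30.8% to 8.99%. Cnga3 and Gnat2 had none. Bipolar cells had 3 of 19 (19969 bp, 6.15%), led by the kinase gene Prkca with 7 domains between 20.1% and 26.4% in Cre-, followed by Gpr179 and Lhx4, and none in Rgs7 or Vsx1. Amacrine cells had 4 of 15 (38377 bp, 11.6% of genes of 20 to 50 kb), Ebf3, Slc6a9, Dab1 and Meis2, and none in Tfap2b or Ptf1a. Horizontal cells had 3 of 8 (27528 bp, 11.6%), and these genes, Ndrg1, Tpm3 and Sept4, are not restricted to that cell type. Prox1 and Slc4a3 had none.

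No domain lay in any of the 15 Müller glia genes, including Glul and Kcnj10, of the 15 ganglion cell genes, including Stmn2 and Elavl4, or of the 12 progenitor genes, including Lhx2 and Sox2. Their median lengths were 15732, 9311 and 6210 bp, at which all genes give 6.15% (10 to 20 kb) or 2.83% (5 to 10 kb). Shorter losses were still common in them: all 15 Müller glia genes, 12 of the 15 ganglion cell genes and 11 of the 12 progenitor genes held a 5hmC loss. Microglia and endothelium had 1 of 17, Cdh5, where 5hmC fell from 16.1% to 4.05%, at a median length of 36075 bp (11.6% of genes of 20 to 50 kb), and none in Eng or P2ry12. Of 1127 olfactory receptor genes, 1 (0.0887%) was touched by a domain, Olfr70, at a median length of 6000 bp (2.83% of genes of 5 to 10 kb).

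Among 14 genes of glycolysis, 5 held a domain, at a median gene length of 23072 bp (11.6% of genes of 20 to 50 kb). The glucose transporter gene Slc2a1 had 2 domains, which fell from 28.3% to 5.88% and from 20.7% to 6.02%. Hk1 had 2 domains, and Eno1 and Bsg, the partner of the lactate transporter, had 1 each over 64.9% and 77.4% of the gene. The 7 domains of this list had a median of 57.3% of their bases in WGBS gains, against 18.4% over all domains. Pdk1 and Slc16a1 had none. Subunits of mitochondrial complex I, with a median of 8768 bp (2.83% of genes of 5 to 10 kb), held a domain in 3 of 32 cases. Ndufv3 and Ndufs7 were covered over 78.8% and 80.5%, and Ndufa8 over 39.5%, while Ndufb3 and Ndufs1 had none.

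**Figure D5:**
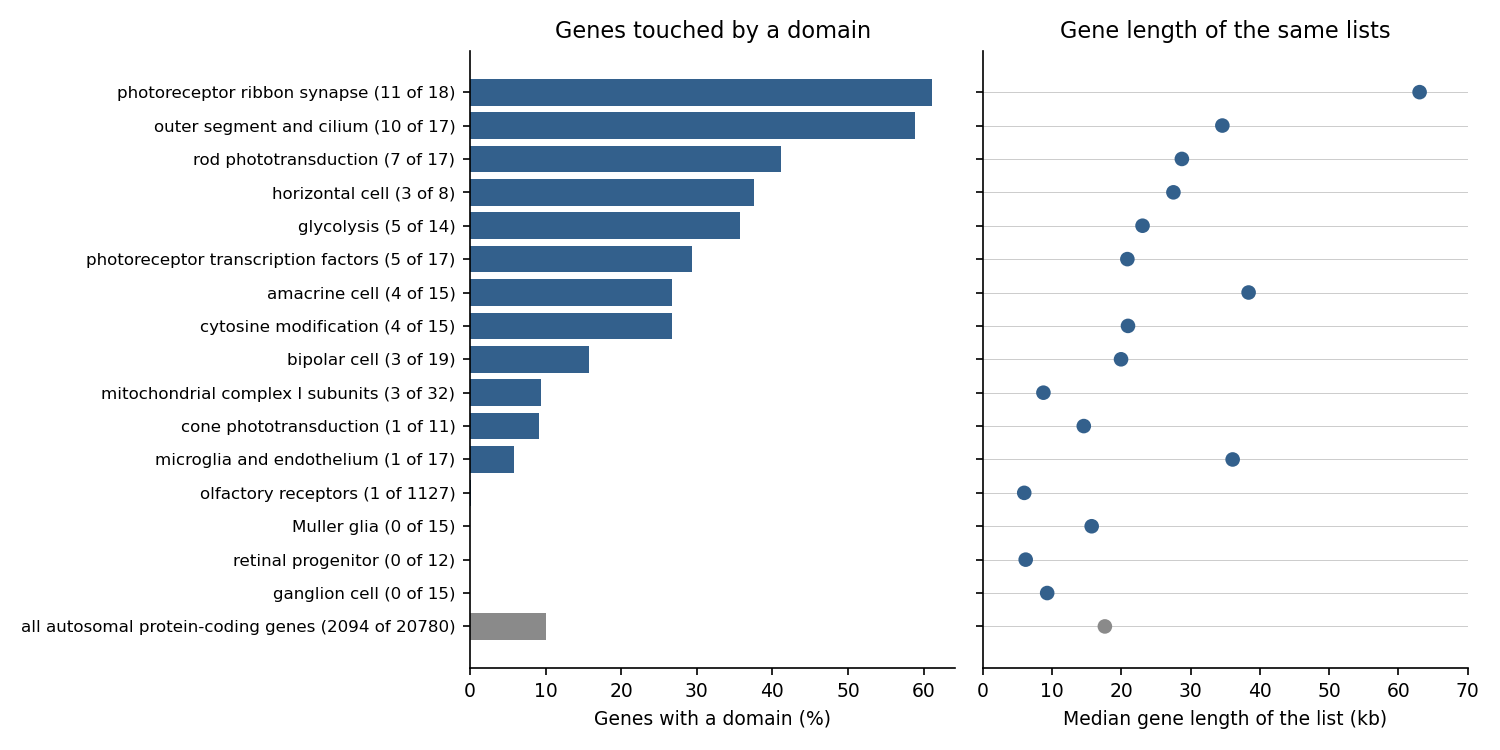
Left, share of the autosomal genes of each list that a domain touches, with the numbers of genes. Right, median gene length of the same list in kb. The lists of rod phototransduction, photoreceptor transcription factors, outer segment and ribbon synapse reach 29.4% to 61.1% and cone phototransduction 9.09%. Horizontal cell genes reach 37.5%, glycolysis 35.7%, and amacrine cell and cytosine modification genes 26.7% each. All protein-coding genes, whose median length is 17636 bp, give 10.1%. Lists of Müller glia, ganglion cell and progenitor genes are at 0 with shorter genes.

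The list of cytosine modification enzymes and readers held a domain in 4 of 15 genes, at a median length of 20972 bp (11.6% of genes of 20 to 50 kb). Tet3, one of the deleted genes, had 5 domains over 34.8% of its 96712 bp. From 5′ to 3′ their Cre- levels were 26.1%, 29.5%, 31.5%, 31.3% and 21.9%, and their Tet tcKO levels 6.62%, 8.44%, 7.62%, 8.81% and 6.13%. WGBS gains covered 81.1% and 88.3% of the second and the third Tet3 domain, and 16.9% to 41.3% of the others. The positions of the floxed exons were not used here, and reads from a deleted stretch could come only from cells that kept it. Dnmt3a, the de novo methyltransferase gene, had 3 domains with levels of 29.3%, 34.6% and 25.01% in Cre- and of 7.61%, 7.78% and 6.97% in the mutant. The methyl-CpG reader gene Zbtb38 had 2 and Tet1 had 1, which fell from 23.8% to 5.40%, while Tet2 and Dnmt3b had none.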

How the data were processed

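WGBS and bACE-seq were made from DNA of the same retinas, with 3 libraries per group and assay, grouped by the sample labels. The study pooled retinas of more than 1 animal for each isolation, so a library does not stand for a single mouse. Following the study's methods section, the authors removed adapters with TrimGalore, aligned reads to mm10 with Bismark (0.18.2), required a mapping quality of 10, removed duplicates and extracted CpG levels with MethylDackel (0.6.1). Regions were called with DSS, which smooths levels along the genome, from CpGs with p under 0.01, with at least 3 CpGs and 50 bp, and regions within 50 bp were merged. The deposited values are a fraction of modified reads per region and group, printed here as percentages. Smoothing and merging set where a region ends. The authors' own difference and area statistic were not used. For WGBS, which column is which group was read from the header of the study's own published version of the list. For bACE-seq it was read from the list name, which puts the control first.

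Every domain started and ended on a CpG of GRCm38, and the listed CpGs equalled the reference in 3252 domains and exceeded it in none. Genes came from GENCODE M21 basic (protein-coding and long noncoding). Levels were weighted by listed CpGs. Overlap meant 1 bp. The share kept is the Tet tcKO level over the Cre- level, and flanks have the length of the domain on each side. CpG island windows had 500 bp, a GC content of 55% or more and an observed to expected ratio of 0.65 or more. Named domains were the 10 longest, the 5 highest and lowest in Cre- level, the 5 with the largest and smallest share kept, the 5 with the largest drop and the largest share in WGBS gains, and the 3 on either side of each threshold. Named genes were the 10 with most bases and the 10 of at least 5 kb with the largest share in domains, and the 5 with most domains. In each list they were up to 4 genes with the most bases in domains and up to 2 without any, with ties in genome order. Samd11 was named beyond this rule, as were genes given as extremes or examples after their values were seen. One of the named domains and one sequence are not reported here. The domains and the 16 gene lists were chosen with earlier results of these data known. Interval counts were tested on simulated data. Python (3.11.15), numpy (2.4.6), pandas (2.3.3) and scipy (1.17.1) were used. With no values per library, no test between groups was run, and regions are not replicates. Alternatives changed the length limit, the ceiling, the weighting, the background, the overlap and the gene models.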

Additional observations from a re-analysis of the deposited data

How the results depend on the processing

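No paired analysis was possible because the lists hold one mean per group and no test was run. Of 36 alternative values for 9 results, 18 stayed close to the reported value, within 1.5 times for counts, within the 95% exact binomial interval for shares of domains and within 1 SD over the 19 autosomes for the others. The binomial interval takes domains as independent, which they are not, so it served only as a fixed limit and measures no spread between libraries. The number of domains was 7549 at 4 kb, 973 at 7.5 kb, 305 at 10 kb and 10460 when losses within 500 bp were joined, where the longest region spanned 53266 bp. For domains of at least 10 kb, the Cre- level was 26.1%, 99.02% overlapped a WGBS gain, 26.0% of bases lay in gains, 96.4% of bases lay in genes and 11.8% held a start site. The share of 5hmC kept was 21.9% after 1 percentage point and 18.3% after 2 were subtracted from both groups. Of the domains, 72.4% overlapped WGBS gains over at least 10% of their bases, 6.42% over at least 50% and 53.5% when gains of at least 0.2 were required, which covered 8.602% of bases, against 8.81% of the flanks. Counted by CpGs in place of bases, 32.5% lay in gains. A start site lay in or within 2 kb of 21.4% of domains. Genes with at least 50% of their bases in domains numbered 231. Leaving out the domains that list under 50% of the reference CpGs, an alternative added after seeing the data, gave 23.8% in Cre-, 25.1% kept, 92.1% with a gain and 22.1% of bases in gains. Without gene models over 1 Mb, also added later, 2086 genes held a domain. The number of domains and their edges therefore rest on the calling and the length limit. Libraries could not be left out in turn, and a gene or region without a domain may still have changed.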
